A study of Mus musculus with 10 samples.

Results

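The genes described here encode pore-forming subunits of ligand-gated ion channels, chosen by name as the AMPA, kainate, NMDA, delta, GABA-A, glycine and nicotinic acetylcholine receptor subunits on a list of 34 genes. Each gene was read from its brightest probe set among those annotated to that gene alone, and 33 of the 34 were measured in this way, out of 18193 genes on the arrays. *Grin1*, the obligatory NMDA receptor subunit, was the member without such a probe set and was not analysed here. Cortical RNA was compared between 5 WT and 5 *Crtc1*-/- arrays, both genotypes being untreated female C57BL/6N littermates that were 2 months old and, per the study's methods, had been housed singly before use. The *Crtc1*-/- mice (labelled Crtc1KO) carry a constitutive deletion of *Crtc1*, which encodes a coactivator of the transcription factor CREB, so the gene was missing in every cell type and throughout development. The study asked how the loss of this coactivator changes cortical gene expression in a mouse line with depression-like behavior.

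Ligand-gated ion channels open when a transmitter binds and turn a chemical signal into an electrical one. AMPA, kainate and NMDA receptors are tetramers of glutamate-gated subunits that carry fast excitation, whereas GABA-A and glycine receptors are chloride-conducting pentamers that carry fast inhibition and nicotinic receptors are cation-conducting pentamers opened by acetylcholine. The subunits that a neuron makes set the kinetics, the ion selectivity and the pharmacology of its synapses.

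All values are log2 array values, differences are *Crtc1*-/- minus WT on the log2 scale, and a gene was called when its limma p, adjusted by Benjamini-Hochberg over all 18193 genes, was under 0.05. *Crtc1* itself averaged 9.69 ± 0.15 (SD, n = 5) in WT and 6.38 ± 0.27 in *Crtc1*-/- cortex, a log2 difference of −3.32. Array medians lay between 5.29 and 5.32, and arrays correlated with each other at 0.994 to 0.998 over probe sets. Excitatory cortical neuron markers were bright, with the 11 measured genes reading above 73.8% to 99.9% of all probe sets.

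CRTC1 works through CREB, which binds the cAMP response element (CRE), so the bases before the transcription starts of the members were searched for it. RefSeq (GRCm38.p6) supplied 250 bases upstream of 30 starts for 25 of the 33 members. The CRE, TGACGTCA, was found before 0 of these 30 starts, against 508 of 32851 (1.55%) in the whole table. Its shorter core TGACG, searched on both strands and also contained in the CRE, was found before 2 of the 30 (6.67%), against 5836 of 32851 (17.8%). The windows of the members had a median GC content of 60.8%, against 52.4% for all windows. A match is a match of letters only, and the absence of a match covers only these windows. Below are the windows of the 3 members whose genotypes did not overlap, *Glra3*, *Chrna7* and *Gria2*, followed by the 2 members that held the core, *Chrna5* and *Chrnb2*. Each is written 5′ to 3′ on the strand of the gene and ends at the base before the start. Capitals mark the core, which reads CGTCA where it lies on the opposite strand.
Glra3, chr8:55940168-55940417, plus strand: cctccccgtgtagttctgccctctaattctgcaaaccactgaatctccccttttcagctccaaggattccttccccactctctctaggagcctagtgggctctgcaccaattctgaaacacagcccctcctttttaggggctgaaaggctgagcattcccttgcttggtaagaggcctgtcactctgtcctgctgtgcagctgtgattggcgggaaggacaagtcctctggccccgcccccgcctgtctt
Chrna7, chr7:63212527-63212776, minus strand: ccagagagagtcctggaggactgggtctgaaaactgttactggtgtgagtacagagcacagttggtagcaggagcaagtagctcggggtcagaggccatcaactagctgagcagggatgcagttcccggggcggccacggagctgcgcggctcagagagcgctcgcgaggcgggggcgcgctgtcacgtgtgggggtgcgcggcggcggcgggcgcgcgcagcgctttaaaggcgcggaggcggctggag
Gria2, chr3:80802836-80803085, minus strand: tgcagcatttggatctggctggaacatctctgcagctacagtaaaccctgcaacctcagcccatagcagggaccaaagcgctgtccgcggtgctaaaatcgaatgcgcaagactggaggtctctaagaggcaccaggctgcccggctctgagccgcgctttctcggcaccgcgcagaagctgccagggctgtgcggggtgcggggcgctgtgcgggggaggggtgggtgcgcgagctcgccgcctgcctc
Chrna5, chr9:54980630-54980879, plus strand: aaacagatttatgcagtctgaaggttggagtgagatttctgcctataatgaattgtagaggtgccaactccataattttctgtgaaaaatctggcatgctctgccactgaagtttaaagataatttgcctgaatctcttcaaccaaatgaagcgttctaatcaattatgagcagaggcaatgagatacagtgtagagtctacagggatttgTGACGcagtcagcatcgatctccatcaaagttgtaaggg
Chrnb2, chr3:89764633-89764882, minus strand: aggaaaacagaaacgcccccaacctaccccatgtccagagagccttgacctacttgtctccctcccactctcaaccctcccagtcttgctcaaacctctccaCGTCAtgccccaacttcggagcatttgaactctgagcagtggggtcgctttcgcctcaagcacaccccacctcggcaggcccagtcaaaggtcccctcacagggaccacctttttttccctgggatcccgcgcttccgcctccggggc
The core began 39 bases before the start in *Chrna5* and 148 bases before it in *Chrnb2*. GC content was 56.0% in the *Glra3* window, 67.2% in that of *Chrna7* and 64.8% in that of *Gria2*.

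Of the 33 subunits, *Glra3* was higher in *Crtc1*-/- cortex and none was lower, and the other 32 did not pass. Over all genes 0.764% were called, 0.308% higher and 0.456% lower. At an unadjusted p under 0.05 there were 7 subunits, 4 of them lower (*Gria4*, *Grin3a*, *Grid1* and *Gabra5*) and 3 higher (*Glra3*, *Chrna7* and *Gabrg3*), beside 9.86% of all genes (5.53% lower and 4.33% higher). The 2 genotypes did not overlap in 3 subunits, *Glra3*, *Chrna7* and *Gria2*, beside 3.14% of all genes (1.10% higher and 2.04% lower). The median difference of the 33 was −0.04, against −0.0030 over all genes, and 31 lay within 0.2 of 0. The 95% confidence interval lay inside ±0.3 for 25 subunits and inside ±0.5 for 31, so that for most subunits a change by 0.5 in either direction was outside the interval. *Glra3* and *Gabra5* were the exceptions. For the dim probe sets of *Grin2a*, *Chrna3*, *Chrna5* and *Chrnb4*, low signal limits what such an interval can show.

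**Figure D1:**
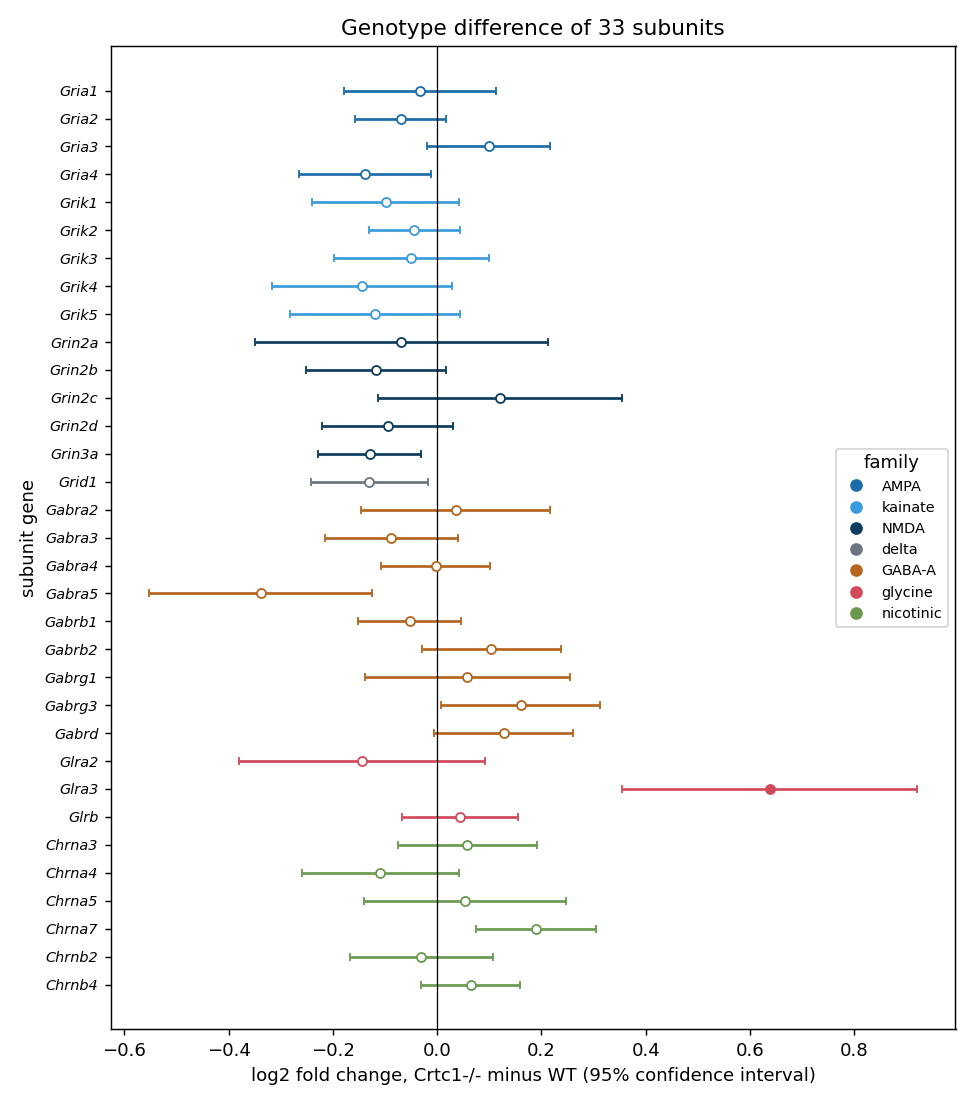
Log2 difference (*Crtc1*-/- minus WT) of the 33 measured subunits, one row per gene and coloured by receptor family, with 95% confidence intervals from limma (n = 5 arrays per genotype). The filled point is *Glra3* at 0.64, the subunit that passed the threshold, and the lowest point is *Gabra5* at −0.34.

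Among the glycine receptor subunits, *Glra3* rose. This gene encodes the alpha 3 subunit, known for its role in inhibitory transmission in the spinal cord. Its values were 7.45, 7.53, 7.60, 7.84 and 7.76 in WT replicates 1 to 5 and 8.003, 8.22, 7.98, 8.62 and 8.55 in *Crtc1*-/- replicates 1 to 5. Every *Crtc1*-/- array stood above every WT array, and the 2 highest were *Crtc1*-/- replicates 4 and 5. The mean went from 7.64 ± 0.16 to 8.27 ± 0.30 (SD, n = 5), a difference of 0.64 (SE 0.13) or 1.56-fold (95% interval 1.28 to 1.89). The limma adjusted p was 0.0496 over genes and 0.0902 when all probe sets were tested together. The call was lost without any 1 of the 5 WT arrays or without *Crtc1*-/- replicate 2, 4 or 5, with adjusted p between 0.0387 and 0.135 over the 10 omissions, while the difference stayed between 0.55 and 0.71. Over all 22 alternatives the adjusted p ran from 0.0187 to 0.565. A further *Glra3* probe set was dim at a mean of 3.46 and differed by 0.02. *Glra3* was the only member on chromosome 8, which also carries *Crtc1*, with 202 genes between them in the GRCm38.p6 gene order. Of these, 84 were measured and 6 were called, beside 22 of 940 over the whole chromosome, which include these 6, and 0.764% of all genes.

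The other alpha subunit, *Glra2*, known from the developing brain, read 6.77, 6.90, 6.89, 7.25 and 7.02 in WT and 6.88, 6.48, 6.90, 7.04 and 6.798 in *Crtc1*-/- replicates 1 to 5. The genotypes overlapped, with WT replicate 4 highest and *Crtc1*-/- replicate 2 lowest. The difference was −0.14 (SE 0.11, limma adjusted p = 0.767). *Glrb*, the beta subunit that anchors glycine receptors to gephyrin, differed by 0.04 (SE 0.05, limma adjusted p = 0.867). The values are from bulk tissue, in which fewer cells of a type and less RNA per cell cannot be told apart.

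None of the 9 GABA-A subunits passed, 5 being above 0 and 4 below, with a median of 0.04 and 2 at an unadjusted p under 0.05. *Gabra5*, the alpha 5 subunit of largely extrasynaptic receptors that carry tonic inhibition, had the lowest difference of the 33. Its values were 8.33, 8.52, 8.30, 8.68 and 8.59 in WT and 8.25, 8.06, 8.11, 8.39 and 7.90 in *Crtc1*-/- replicates 1 to 5. *Crtc1*-/- replicate 4 lay above WT replicates 1 and 3, and the other 4 *Crtc1*-/- arrays lay under every WT array. The difference was −0.34 (SE 0.10) or 0.791-fold (95% interval 0.682 to 0.917), with a limma adjusted p of 0.199. It ranged from −0.42 to −0.11 over the alternatives and passed in none of them.

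*Gabrg3*, the gamma 3 subunit, read 6.43, 6.27, 6.57, 6.57 and 6.60 in WT and 6.49, 6.71, 6.68, 6.68 and 6.69 in *Crtc1*-/- replicates 1 to 5. *Crtc1*-/- replicate 1 lay among the WT arrays, and the other 4 *Crtc1*-/- arrays lay above all of them. The difference was 0.16 (SE 0.07, limma adjusted p = 0.471). Its 4 probe sets were not on one side of 0, the other 3 giving 0.23, 0.08 and −0.12. *Gabrb2*, the beta 2 subunit of the common cortical GABA-A receptor, was above 0 in 5 of 5 probe sets, by 0.08 to 0.16, with a difference of 0.10 (SE 0.06, limma adjusted p = 0.659) at its brightest. *Gabrd*, the delta subunit of extrasynaptic receptors, differed by 0.13 (SE 0.06, limma adjusted p = 0.534). The remaining 5, the alpha subunits *Gabra2*, *Gabra3* and *Gabra4*, the beta subunit *Gabrb1* and the gamma subunit *Gabrg1*, lay between −0.09 and 0.06.

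**Figure D2:**
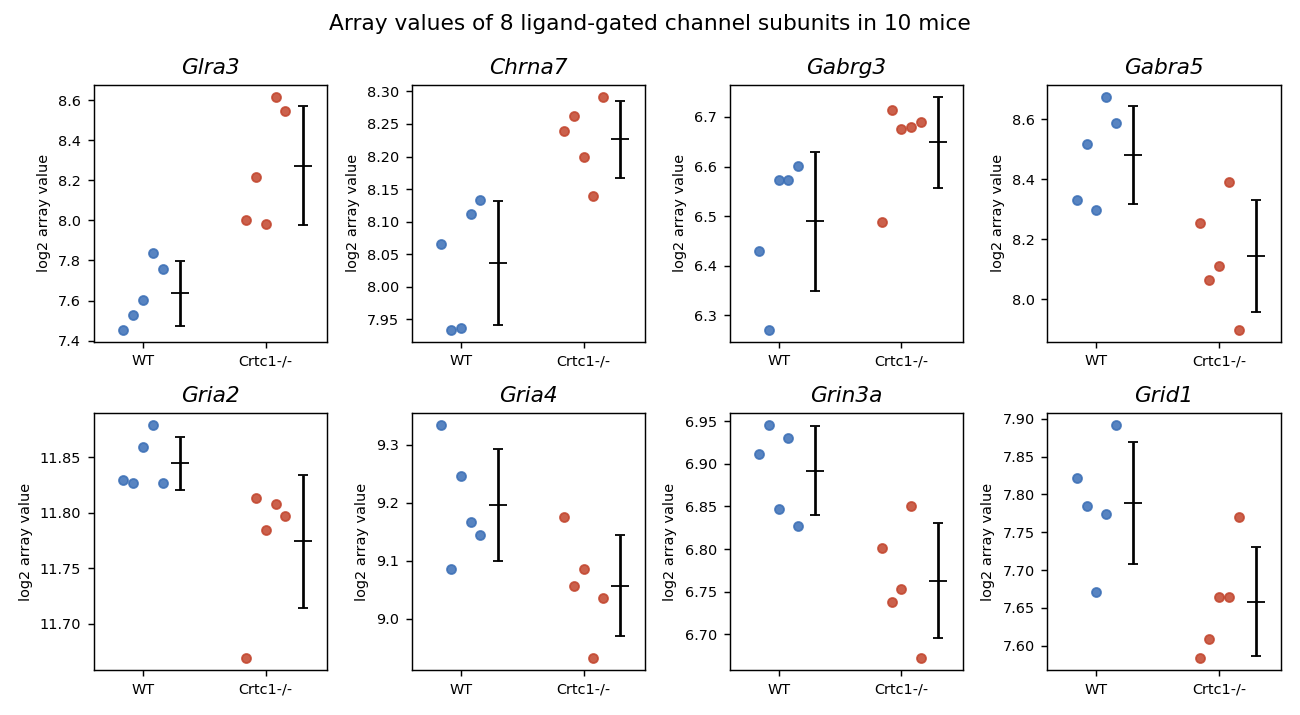
Log2 array values of 8 subunits in the 10 mice, one point per array, with the mean and SD of each genotype (n = 5) beside the points. The vertical axes do not start at 0 and differ between panels. *Glra3*, *Chrna7* and *Gria2* have no overlap between genotypes, whereas *Gabrg3*, *Gabra5*, *Gria4*, *Grin3a* and *Grid1* do.

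Of the 6 nicotinic subunits, none passed, 4 were above 0 and the median was 0.06. *Chrna7* encodes the alpha 7 subunit, which forms calcium-permeable homomeric receptors. It read 8.07, 7.93, 7.94, 8.11 and 8.13 in WT and 8.24, 8.26, 8.20, 8.14 and 8.29 in *Crtc1*-/- replicates 1 to 5. All *Crtc1*-/- arrays were above all WT arrays, although *Crtc1*-/- replicate 4 and WT replicate 5 were 8.14 and 8.13. The difference was 0.19 (SE 0.05) or 1.14-fold, with a limma adjusted p of 0.173, and the gene passed under no alternative. With the hippocampal marker mean in the fit it became 0.06. That mean was itself lower in *Crtc1*-/- arrays (exact permutation p = 0.0159, adjusted over 10 marker lists 0.119), so the fit cannot separate it from genotype. *Chrna4*, the alpha 4 subunit of the main high-affinity nicotine receptor of the brain, read 6.89, 6.97, 6.97, 7.27 and 7.13 in WT and 6.99, 6.99, 6.89, 6.86 and 6.96 in *Crtc1*-/- replicates 1 to 5. WT replicates 4 and 5 were above every *Crtc1*-/- array, and the other WT arrays lay among them. The difference was −0.11 (SE 0.07, limma adjusted p = 0.691), or −0.05 without WT replicate 4, and 3 of 3 probe sets were below 0. Its partner subunit *Chrnb2* was also below 0 in 3 of 3 probe sets, by 0.03 at the brightest. *Chrna3*, *Chrna5* and *Chrnb4*, subunits best known from autonomic ganglia and the habenula, had differences of 0.06, 0.05 and 0.06, all from probe sets that read below most others on the arrays.

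A dimmer *Chrna5* probe set gave a larger value than the one that stood for the gene. It read 3.37, 4.05, 3.55, 3.84 and 4.02 in WT and 4.19, 4.12, 4.49, 4.61 and 3.96 in *Crtc1*-/- replicates 1 to 5. *Crtc1*-/- replicate 5 lay under 2 WT arrays, and the other 4 *Crtc1*-/- arrays were above all WT arrays. The difference was 0.51 (SE 0.15), with a limma adjusted p of 0.361 over probe sets, and the probe set read above only 32.0% of the others.

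Within the AMPA receptor family, 3 of 4 subunits were below 0 and none passed. *Gria2*, the subunit that makes AMPA receptors impermeable to calcium, read 11.83, 11.83, 11.86, 11.88 and 11.83 in WT and 11.67, 11.81, 11.78, 11.81 and 11.80 in *Crtc1*-/- replicates 1 to 5. Every *Crtc1*-/- array lay under every WT array, and *Crtc1*-/- replicate 1 stood apart at the bottom. The difference was small, −0.07 (SE 0.04, limma adjusted p = 0.648). *Gria2* also had one of the smallest spreads between arrays of one genotype, with a pooled SD of 0.0455 against a median of 0.0994 over the members. Of its other probe sets, one differed by −0.07 and the other by 0.12.

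*Gria4*, an AMPA subunit enriched in interneurons, read 9.33, 9.09, 9.25, 9.17 and 9.14 in WT and 9.17, 9.06, 9.09, 8.93 and 9.04 in *Crtc1*-/- replicates 1 to 5. The genotypes overlapped, with *Crtc1*-/- replicate 1 above 3 WT arrays. The difference was −0.14 (SE 0.06, limma adjusted p = 0.446), and its other probe sets gave −0.15 and 0.0027. *Gria3* read 11.02, 11.18, 11.27, 11.23 and 11.08 in WT and 11.33, 11.22, 11.24, 11.20 and 11.28 in *Crtc1*-/- replicates 1 to 5. WT replicates 1, 2 and 5 were under every *Crtc1*-/- array, while WT replicates 3 and 4 lay among them, and the difference was 0.10 (SE 0.05, limma adjusted p = 0.610). *Gria1*, a subunit inserted at synapses during plasticity, differed by −0.03 at its brightest probe set. Its other probe set had no overlap, with WT between 9.78 and 9.85 and *Crtc1*-/- between 9.58 and 9.73, a difference of −0.16 (SE 0.05, limma adjusted p = 0.300 over probe sets).

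All 5 kainate receptor subunits were below 0, by 0.04 to 0.14, and none passed or reached an unadjusted p under 0.05. These values are from the brightest probe sets, and the other probe sets of *Grik1*, *Grik2* and *Grik3* were above 0, by 0.02, 0.05 and 0.08, while *Grik4* and *Grik5* had only 1 each. The kainate receptor family pairs *Grik1* to *Grik3*, which can form channels alone, with the high-affinity subunits *Grik4* and *Grik5*, which need them as partners. *Grik4* read 7.16, 7.08, 6.997, 6.84 and 6.70 in WT and 6.86, 6.87, 6.82, 6.79 and 6.74 in *Crtc1*-/- replicates 1 to 5. WT replicates 1, 2 and 3 were above every *Crtc1*-/- array, WT replicate 5 was below every one, and the difference was −0.14 (SE 0.08, limma adjusted p = 0.615). *Grik5* read 9.66, 9.60, 9.64, 9.44 and 9.32 in WT and 9.45, 9.54, 9.34, 9.46 and 9.27 in *Crtc1*-/- replicates 1 to 5. The same WT arrays 1, 2 and 3 were above every *Crtc1*-/- array, and the difference was −0.12 (SE 0.07, limma adjusted p = 0.687).

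In the NMDA receptor family, 4 of the 5 measured subunits were below 0 and none passed. *Grin3a*, a glycine-binding subunit that lowers calcium permeability, read 6.91, 6.95, 6.85, 6.93 and 6.83 in WT and 6.802, 6.74, 6.75, 6.85 and 6.67 in *Crtc1*-/- replicates 1 to 5. Only *Crtc1*-/- replicate 4 reached into the WT range, and the difference was −0.13 (SE 0.05, limma adjusted p = 0.329), with 3 of 3 probe sets below 0. *Grin2b*, a glutamate-binding subunit prominent early in development, read 10.11, 10.20, 10.27, 10.08 and 10.08 in WT and 10.15, 10.06, 9.93, 9.90 and 10.11 in *Crtc1*-/- replicates 1 to 5. *Crtc1*-/- replicates 1 and 5 lay among the WT arrays, and the difference was −0.12 (SE 0.06, limma adjusted p = 0.588). Of the other glutamate-binding subunits, *Grin2c* differed by 0.12 and *Grin2d* by −0.10. The *Grin2c* value was 0.05 without WT replicate 4 and 0.21 without WT replicate 1. *Grin2a* was measured by a single probe set that read above 40.7% of the others, and it differed by −0.07 with one of the widest spreads of the members (pooled SD 0.238).

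*Grid1* encodes a delta receptor subunit that organizes synapses through cerebellins and is not opened by glutamate itself. It read 7.82, 7.78, 7.67, 7.77 and 7.89 in WT and 7.58, 7.61, 7.66, 7.67 and 7.77 in *Crtc1*-/- replicates 1 to 5. WT replicate 3 was the low WT array and *Crtc1*-/- replicate 5 the high *Crtc1*-/- array, and these alone made the genotypes overlap. The difference was −0.13 (SE 0.05, limma adjusted p = 0.410), and its other probe set gave 0.03.

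Set side by side, 13 of the 15 measured ionotropic glutamate receptor subunits were below 0 (86.7%), against 7 of the 18 GABA-A, glycine and nicotinic subunits (38.9%) and 51.6% of all genes. This share was not particular to them. Among lists described below, interneuron markers were below 0 in 91.7%, excitatory cortical neuron markers in 81.8% and auxiliary and scaffold genes in 65.6%. Oligodendrocyte, oligodendrocyte precursor and endothelial markers were below 0 in 0%. The median difference was −0.10 for the glutamate receptor subunits, all 15 of which lay within 0.2 of 0, and 0.05 for the 18 others. Averaged over the 15 glutamate receptor subunits, deviations from each gene's mean were 0.0434, 0.0491, 0.0607, 0.0030 and 0.0136 in WT and −0.0239, −0.0016, −0.0577, −0.0358 and −0.0509 in *Crtc1*-/- replicates 1 to 5. All WT arrays were thus above all *Crtc1*-/- arrays, the nearest pair being WT replicate 4 and *Crtc1*-/- replicate 2. Over the 18 other subunits the averages overlapped. They were −0.0723, −0.0517, −0.0527, 0.0459 and 0.0245 in WT and 0.0322, −0.0329, 0.0252, 0.0727 and 0.0092 in *Crtc1*-/- replicates 1 to 5. WT replicates 1, 2 and 3 thus lay below WT replicates 4 and 5 here, but above them for the glutamate receptor subunits. The WT arrays therefore also differed among themselves in opposite directions in these 2 sets. The count of 13 became 11 of 15 when all probe sets of a gene were averaged or a hippocampal marker mean entered the fit, and 12 of 15 without WT replicate 5. No test was run between the families.

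**Figure D3:**
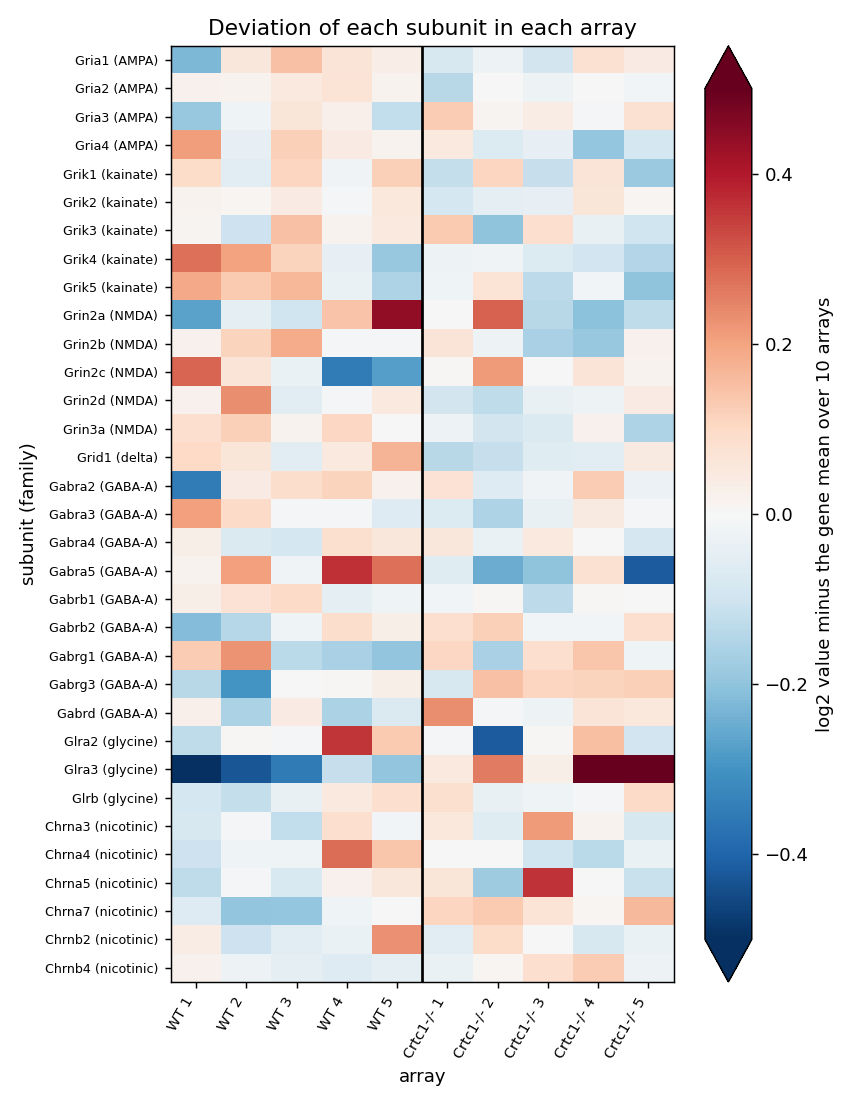
Log2 value minus the gene's mean over the 10 arrays for the 33 subunits (rows, with the family in parentheses) in each array (columns, WT left of the line and *Crtc1*-/- right of it). Red is above and blue below the mean, and the scale ends at ±0.5. *Glra3* is the row with the clearest split between genotypes, and the glutamate receptor rows at the top are more often blue on the right.

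The 33 subunits were covered by 78 probe sets. Of the 27 subunits with more than 1, 14 had all probe sets on one side of 0 and 13 had them on both sides. Over all 45037 probe sets, 0.302% were called, 7.19% had an unadjusted p under 0.05 and 2.08% did not overlap. The members' probe sets gave 0 calls by limma at this level, 11 with an unadjusted p under 0.05 (5 lower and 6 higher) and 4 without overlap.

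**Figure D4:**
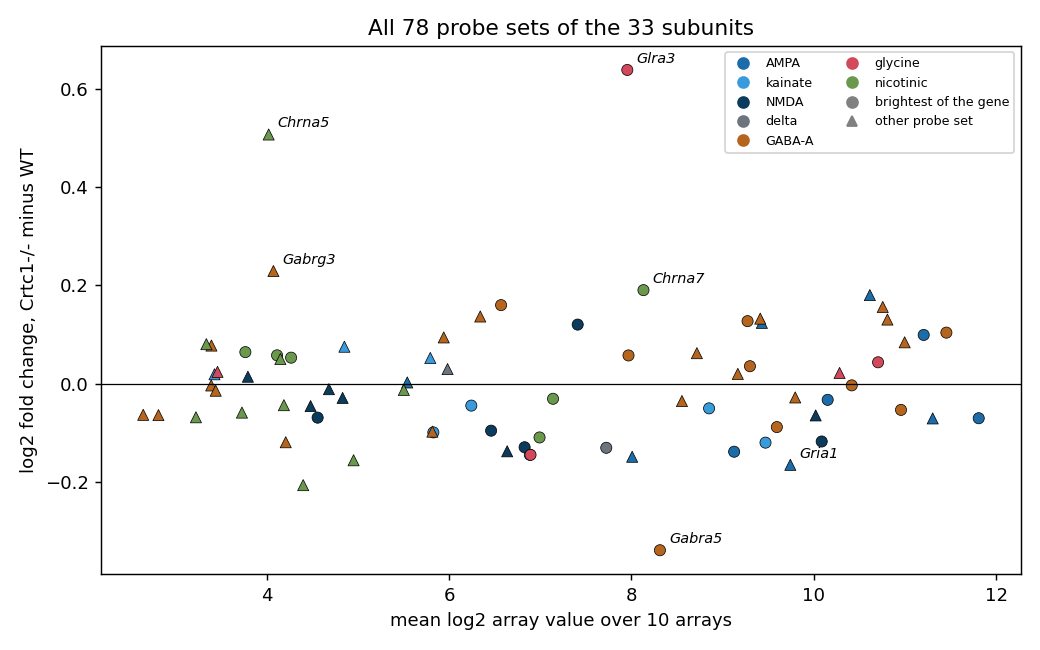
All 78 probe sets of the 33 subunits, with the mean log2 value over the 10 arrays on the horizontal axis and the log2 difference (*Crtc1*-/- minus WT) on the vertical axis. Circles are the probe sets that stood for a gene and triangles the others, and *Glra3* at 0.64 and the dim *Chrna5* probe set at 0.51 are the highest points.

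Ligand-gated channels work with auxiliary subunits, assembly factors and scaffolds, and 32 of 33 such genes on the list were measured. By limma 0 were called in either direction, 7 had an unadjusted p under 0.05 (5 lower and 2 higher, against 9.86% of all genes), and 21 of 32 were below 0, with a median of −0.04. The 3 smallest p-values were those of *Cbln1*, a secreted ligand of delta receptors, and of *Shisa6* and *Shisa9*, which slow or modulate AMPA receptor desensitization. *Cbln1* averaged 6.62 ± 0.15 in WT and 6.20 ± 0.21 in *Crtc1*-/- cortex (SD, n = 5) with no overlap, a difference of −0.42 (SE 0.10, limma adjusted p = 0.102). *Shisa6* differed by −0.37 (SE 0.09, limma adjusted p = 0.139) and *Shisa9* by −0.24 (SE 0.06, limma adjusted p = 0.147). The next was *Cacng5*, an AMPA receptor auxiliary subunit, at 0.28 (SE 0.07, limma adjusted p = 0.149), and the difference farthest from 0 was that of *Cbln4*, a further cerebellin, at −0.56 (SE 0.16, limma adjusted p = 0.185). Of 27 measured channel subunits outside the members, such as purinergic receptors, 0 were called by limma and 0 had an unadjusted p under 0.05. The smallest p-values there were those of *P2rx4* (0.14, limma adjusted p = 0.537), *Chrnb1* (0.17, limma adjusted p = 0.540) and *Gabrr2* (0.12, limma adjusted p = 0.604). Many of these probe sets were dim, the 27 reading above 7.29% to 71.55% of all probe sets. *Chrnb1* stood at 19.16% and *Gabrr2* at 28.09%, which limits what the absence of calls can show.

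Markers of other cells and regions were set beside these values. Oligodendrocyte markers were above 0 in 11 of 11 genes with none passing and 5 at an unadjusted p under 0.05, and their mean was 9.97 to 10.30 in WT and 10.23 to 10.55 in *Crtc1*-/- arrays (exact permutation p = 0.0476, adjusted over 10 marker lists 0.127). Oligodendrocyte precursor markers were above 0 in 6 of 6 genes, 2 of them at an unadjusted p under 0.05, with a mean of 8.46 to 8.61 in WT and 8.57 to 8.72 in *Crtc1*-/- arrays (exact permutation p = 0.0238, adjusted 0.119). Of 10 hippocampal markers, 2 were called lower, *Fibcd1* by −0.41 and *Fam163b* by −0.28 (limma adjusted p = 0.00922 and 0.0188). The list held 6 genes below 0 and 4 above, with a median difference of −0.015. Its mean, which includes these 2 genes, was 5.49 to 5.604 in WT and 5.43 to 5.49 in *Crtc1*-/- arrays (exact permutation p = 0.0159, adjusted 0.119). Excitatory cortical neuron markers were below 0 in 9 of 11 genes with none passing and 5 at an unadjusted p under 0.05 (4 lower and 1 higher). Their mean was 9.60 to 9.71 in WT and 9.60 to 9.64 in *Crtc1*-/- arrays (exact permutation p = 0.0635, adjusted 0.127). Interneuron markers were below 0 in 11 of 12 genes, with 0 at an unadjusted p under 0.05. Their mean was 9.02 to 9.14 in WT and 8.97 to 9.05 in *Crtc1*-/- arrays (exact permutation p = 0.103, adjusted 0.172). Astrocyte, microglia, endothelial and striatal markers gave 0 calls by limma, with 3 of these 33 genes at an unadjusted p under 0.05. They were the astrocyte gene *Gfap* (0.22, limma adjusted p = 0.269) and the striatal genes *Pde10a* (−0.44, limma adjusted p = 0.151) and *Rasd2* (−0.41, limma adjusted p = 0.287). Genes above 0 were 7 of 10 for astrocytes, 6 of 8 for microglia, 7 of 7 for endothelium and 3 of 8 for striatum. Among 7 thalamic markers, *Slc17a6* differed by 0.59 without overlap (limma adjusted p = 0.0574), and the other 6 lay between −0.10 and 0.06. With the oligodendrocyte mean in the fit, *Glra3* differed by 0.63 (SE 0.17, limma adjusted p = 0.372). With the hippocampal mean it differed by 0.76 (SE 0.23, limma adjusted p = 0.565). *Glra3* thus passed in neither fit, while its difference was 0.64 (SE 0.13) without a covariate. Its SE rose with each covariate, whereas its difference was 0.63 or more in both fits. *Gabra5* differed by −0.11 (SE 0.16) with the hippocampal mean, against −0.34 (SE 0.10) without a covariate. Both marker means leaned with genotype (exact permutation p = 0.0476 and 0.0159), so these fits cannot separate marker from genotype. The part of these cells and regions in the values of *Glra3*, *Gabra5* and the glutamate receptor subunits was not tested beyond these fits.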

How the data were processed

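Cortical RNA, 300 ng per array, was labelled with biotin for GeneChip Mouse Genome arrays (Affymetrix). Quality was checked by the authors with RACE, arrays whose normalized unscaled standard error was high were dropped, and the deposited values are log2 values for each probe set and array. The background correction, normalization and summarization were not given in the sources used here. The values ran from 2.14 to 14.26, and precision is limited by having 5 arrays per genotype.

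Of 45037 probe sets left after removal of 64 controls, 34945 named 1 gene, 932 several and 9160 none. Gene identifiers of 34741 were matched to GRCm38.p6, for names and gene order only. The brightest probe set represented a gene. Differences were fitted with lmFit and eBayes (limma 3.58.1, R 4.3.3), two-sided, with Benjamini-Hochberg adjustment over all 18193 genes, after the script was tested on simulated data. Marker means had a two-sided exact permutation test over arrays.

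The members, lists and rules were chosen with earlier results of these data known. Values in every array were given for subunits that passed or did not overlap, for the 2 smallest p in each family, and for the dimmer *Chrna5* probe set, which was chosen after its values were seen. The same holds for the other *Gria1* probe set, *Gabrb2*, *Gabrd*, *Slc17a6*, *Gfap*, *Pde10a*, *Rasd2*, *Cacng5*, *Cbln4* and the chromosome of *Glra3*. Alternatives changed the normalization, filter, choice of probe set, variance prior, array weights, covariates and arrays. No batch is given in the labels. The study's methods say that its experiments ran in sequence on several batches of mice, whose data were pooled. The batch of each array is not given there. No filter on dim probe sets was used.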

Additional observations from a re-analysis of the deposited data

Results flagged for a closer look

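Of the 66 groups of 5 arrays formed by 33 subunits and 2 genotypes, 4 held an array whose gap to its nearest neighbour took up more than 0.71 of the group's range (Dixon's critical value for 5), and chance gives about 1 in 20. In *Gria2*, *Crtc1*-/- replicate 1 was low at 11.67 against 11.78 to 11.81 in the others, a gap of 0.804 of the range. In *Gabra2*, WT replicate 1 was low at 8.95 against 9.32 to 9.41, with 0.809. In *Gabrb1*, *Crtc1*-/- replicate 3 was low at 10.83 against 10.94 to 10.96, with 0.85. In *Gabrg3*, *Crtc1*-/- replicate 1 was low at 6.49 against 6.68 to 6.71, with 0.829.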

How the results depend on the processing

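No subunit was called lower under any of the 22 alternatives. The count called higher was 1, *Glra3*, and became 0 with all probe sets tested together, with array medians centred, with each gene's probe sets averaged, without moderation, and with the oligodendrocyte or the hippocampal marker mean as a covariate. Leaving out 1 array gave 0 to 1. *Glra3* passed in 8 of 22 alternatives with differences of 0.33 to 0.76. The median of the members, −0.04, became −0.020 with probe sets averaged and −0.026 with the hippocampal covariate, and ran from −0.048 to −0.028 when 1 array was left out. The replicate block, whose numbers did not pair the arrays (correlations of same-numbered deviations −0.262 to 0.0596), kept *Glra3* at an adjusted p of 0.0187 and changed no call of a subunit. Differences of subunits that did not pass changed sign as follows. With the hippocampal covariate, *Gria1* became 0.13, *Grin2d* 0.030, *Glra2* 0.063 and *Glrb* −0.021. With probe sets averaged, *Grik2* became 0.0041, *Grik3* 0.013, *Gabra2* −0.0092, *Gabra4* 0.065 and *Chrna3* −0.023. With the oligodendrocyte covariate, *Gabra2* became −0.050, *Chrna3* −0.015 and *Chrna5* −0.082, and with quantile normalization *Gabra4* became 0.0011. Leaving out 1 array gave −0.15 to 0.033 for *Grin2a*, −0.048 to 0.068 for *Gabra2*, −0.026 to 0.017 for *Gabra4*, −0.031 to 0.10 for *Chrna5* and −0.060 to 0.023 for *Chrnb2*. The difference moved by over 1.5 times in 24 of 33 subunits when at least 1 of the arrays was left out, in 24 with the hippocampal covariate and in 21 with the oligodendrocyte covariate. Over all genes, 83 lower and 56 higher calls became 148 and 88 with a trended robust prior, 49 and 26 without moderation, 36 and 26 with the block, 32 and 22 with the oligodendrocyte covariate and 7 and 5 with the hippocampal one. The cause of these shifts was not tested, and the marker means used as covariates themselves leaned with genotype. Dim probe sets such as those of *Grin2a*, *Chrna3*, *Chrna5* and *Chrnb4* limit what their differences can show.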
